A study of Mus musculus with 9 samples.

Results

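The genes described here encode translation elongation factors and other parts of the protein synthesis machinery whose mRNAs are known or presumed to begin with a terminal oligopyrimidine (TOP) tract. They are 10 of the 22396 genes counted: Eef1a1 (ENSMUSG00000037742), Eef1b2 (ENSMUSG00000025967), Eef1d (ENSMUSG00000055762), Eef1g (ENSMUSG00000071644), Eef2 (ENSMUSG00000034994), Eif4a1 (ENSMUSG00000059796), Eif4b (ENSMUSG00000058655), Eif5a (ENSMUSG00000078812), Pabpc1 (ENSMUSG00000022283) and Tpt1 (ENSMUSG00000060126). They were chosen by name, with their CPM (each count scaled to the total of its library) in these same libraries in view, so their levels and fold changes are descriptions and carry no test. All 10 passed the filter on low counts.

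During elongation, eEF1A brings each aminoacyl-tRNA to the ribosome as a complex with GTP, the eEF1B complex reloads eEF1A with GTP, and eEF2 moves the ribosome along the mRNA by a codon. A TOP mRNA starts with a C followed by a run of pyrimidines, and through this start the kinase complex mTORC1 and the protein LARP1 control its translation. Ribosomal proteins and most elongation factors are encoded by such mRNAs, which are among the most abundant of growing cells.

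B16F10 is a mouse melanoma cell line, and the cells used here stably expressed FLAG-tagged RIG-I, a cytoplasmic sensor of RNA. They carried a control shRNA (shCtr, labelled WT) or shOSGEP#1 or shOSGEP#2 (both labelled KD OSGEP), shRNAs against OSGEP, the catalytic subunit of the KEOPS complex, which makes t6A on tRNAs that decode ANN codons. RNA recovered with RIG-I was depleted of ribosomal RNA and sequenced, in 3 libraries per group from independent experiments. The question was which endogenous RNAs RIG-I binds once OSGEP is lost, so a gene's value is its share of the RIG-I-bound RNA, and input RNA was not analysed here.

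Total counts were 40333037, 47750758 and 41805753 in the shCtr libraries, 34551436, 50224299 and 30697653 in the shOSGEP#1 libraries, and 25460689 and 14914731 in shOSGEP#2 replicates 1 and 3. The library of shOSGEP#2 replicate 2 held 568995 counts on 4196 genes, while the other 8 libraries detected between 11733 and 13958. It stood apart from all others in depth and is therefore given separately below, and the group means of shOSGEP#2 are over 2 libraries. Its floor of 3 counts corresponds to 5.27 CPM.

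Osgep itself, the target of both shRNAs, was counted 771, 949 and 649 times in the shCtr libraries, 130, 58 and 47 times with shOSGEP#1, and 2 and 43 times with shOSGEP#2, with no count in the shallow library. This was 18.2 ± 2.32 CPM (SD, n = 3) in shCtr, 2.15 ± 1.41 (SD, n = 3) with shOSGEP#1 and 1.48 ± 1.98 (SD, n = 2) with shOSGEP#2. By the quasi-likelihood test of edgeR, run on the 8 deep libraries and the 12744 genes that passed the filter, the log2 fold changes were −3.10 (standard error 0.73, adjusted p = 0.0128) and −3.84 (standard error 0.93, adjusted p = 0.0150). Both lay in the direction of the labels but not past the threshold used throughout, a Benjamini-Hochberg adjusted p under 0.01.

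The melanocyte markers chosen for this cell line (Mitf, Dct, Tyrp1, Tyr, Pmel, Mlana and Sox10) were present in all 8 deep libraries. Their summed level was 6336, 6039 and 8473 CPM in shCtr, 6288, 7565 and 6840 CPM with shOSGEP#1 and 2617 and 3374 CPM with shOSGEP#2, with Tyrp1 the most abundant of them in each of these libraries. The shallow library held 1664 CPM of them, most of it Sox10 at 1090 CPM, with 2 of the 7 markers (Mitf and Tyr) at 0. Of these 7 genes, 5 fell with shOSGEP#2 (Dct, Mlana, Pmel, Sox10 and Tyr), beside 3.89% of all genes, and 1 with shOSGEP#1 (Tyr), beside 4.67%. Between the shRNAs, 4 (Dct, Mlana, Pmel and Sox10) were lower with shOSGEP#2, beside 4.56% of all genes, and kept this call without each of the 8 libraries in turn. Against shCtr, Mlana was no longer past the threshold without shOSGEP#2 replicate 3 (edgeR adjusted p = 0.0109), nor Sox10 without shOSGEP#2 replicate 1 (edgeR adjusted p = 0.0101). Markers of 4 other cell types (Ptprc, Cd3e, Pecam1, Cdh5, Krt5, Krt14, Col1a1 and Pdgfrb) together reached 5.72 to 8.63 CPM in shCtr, 8.91 to 10.0 CPM with shOSGEP#1, and 19.1 and 42.2 CPM with shOSGEP#2, with Pdgfrb the most abundant. Krt5 was at 0 in every library, and the shallow library had counts for Col1a1 alone, at 68.5 CPM. Of these 8 markers 5 were tested, and Pdgfrb rose with shOSGEP#2 against shCtr (beside 5.66% of all genes), a call lost without shOSGEP#2 replicate 3 (edgeR adjusted p = 0.0130). Col1a1 was higher with shOSGEP#2 than with shOSGEP#1 (beside 6.23%), a call lost without shCtr replicate 1 or 2, any shOSGEP#1 library or shOSGEP#2 replicate 3 (edgeR adjusted p up to 0.0801). The melanocyte markers were thus lower in the same shOSGEP#2 libraries in which several of the 10 genes were low. Their part in the results below was not tested. These bulk samples, analysed without input RNA, cannot tell apart fewer cells of a type, less RNA per cell and less binding to RIG-I.

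In shCtr cells the 10 genes covered a wide range of levels, compared here as CPM per kilobase of transcript. Eef1a1 had the highest CPM in shCtr of the 22396 genes counted. Per kilobase of transcript it stood at 7149 ± 237 (SD, n = 3), rank 2 of all genes with a known length. Eef2 followed at 1730 ± 285, Tpt1 at 1339 ± 90.8, Eif5a at 739 ± 70.4 and Pabpc1 at 543 ± 102 (SD, n = 3 each). Eif4a1 at 370 ± 13.1 and Eef1g at 368 ± 26.5 were not separated by their replicates. Eef1b2 at 205 ± 24.5, Eif4b at 160 ± 10.5 and Eef1d at 79.3 ± 11.6 came last. Every other pair of neighbours in this order was apart in all 3 shCtr libraries. With shOSGEP#1 the libraries of Pabpc1 overlapped with those of Eif5a, and those of Eef1b2 with those of Eif4b. With shOSGEP#2 Eif5a overlapped with Pabpc1 and Eif4a1 with Eef1g, and Eef1b2 (97.3 ± 7.20, SD, n = 2) stood below Eif4b (168 ± 3.09, SD, n = 2). Per kilobase of coding sequence, Tpt1 (3033 ± 206) and Eif5a (2300 ± 219) had higher means than Eef2 (2076 ± 342, SD, n = 3 each), Tpt1 in all 3 libraries and Eif5a with overlap. By the same measure Eef1b2 (588 ± 70.4) had a higher mean than Eif4a1 (538 ± 19.0) and Eef1g (523 ± 37.7, SD, n = 3 each), with overlap. The place of Eef1b2 in the order thus depends on the length used.

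**Figure D1:**
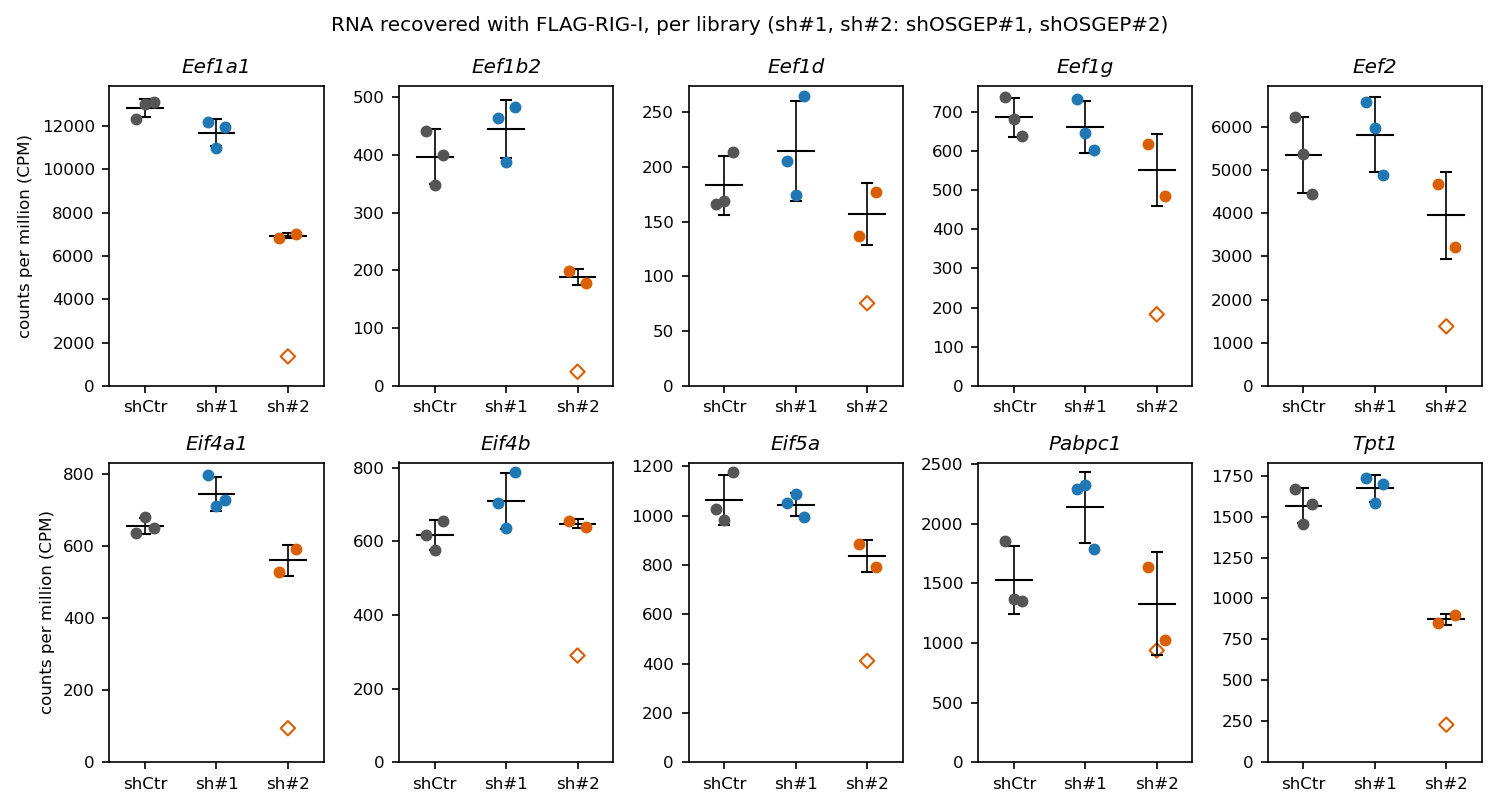
CPM (y axis, from 0, its own scale per gene) of the 10 genes in each library by group; filled points are the 8 deep libraries, lines and bars their mean and SD, and the open diamond is shOSGEP#2 replicate 2. Eef1a1, Eef1b2, Eif4a1, Eif5a and Tpt1 in the deep shOSGEP#2 libraries lie below all shCtr and shOSGEP#1 libraries, and the diamond is the lowest point in all 10 panels.

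Eef1a1, which encodes the main form of eEF1A, was recovered at 12339, 13022 and 13118 CPM in the shCtr libraries. It reached 12181, 10971 and 11931 CPM with shOSGEP#1, and 6844 and 7015 CPM in the deep shOSGEP#2 libraries. Both shOSGEP groups lay below shCtr without overlap, shOSGEP#1 by a small margin and shOSGEP#2 by a wide one. The log2 fold change was −0.15 (standard error 0.12) with shOSGEP#1 and −0.98 (standard error 0.13) with shOSGEP#2, a fold of 0.506. The shallow library held 775 counts of Eef1a1, 0.136% of its total (95% Wilson interval 0.127% to 0.146%), against 0.684% (0.681% to 0.688%) and 0.702% (0.697% to 0.706%) in the other shOSGEP#2 libraries. These intervals cover counting error only.

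The eEF1B complex consists of a guanine nucleotide exchange subunit, eEF1Bα (Eef1b2), a related subunit, eEF1D (Eef1d), and the structural subunit eEF1G (Eef1g). Eef1b2 was at 442, 347 and 401 CPM in shCtr, 465, 388 and 483 CPM with shOSGEP#1 and 199 and 179 CPM with shOSGEP#2. Its shOSGEP#2 libraries were below every other deep library, and its log2 fold change of −1.17 (standard error 0.18) was the lowest of the 10 genes. The shallow library had 14 counts of it. Eef1d was at 166, 169 and 214 CPM in shCtr, 206, 175 and 265 CPM with shOSGEP#1 and 137 and 177 CPM with shOSGEP#2, so that all 3 groups overlapped. Eef1g was at 738, 681 and 639 CPM in shCtr, 733, 646 and 603 CPM with shOSGEP#1 and 617 and 485 CPM with shOSGEP#2. Its shOSGEP#2 libraries lay below shCtr but not below shOSGEP#1, and the log2 fold changes against shCtr were −0.32 (standard error 0.21) for Eef1d and −0.41 (standard error 0.17) for Eef1g. Without each library in turn, these ran from −0.48 to −0.18 for Eef1d and from −0.63 to −0.22 for Eef1g.

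Eef2, the translocase, was at 6214, 5367 and 4452 CPM in shCtr, 6583, 5975 and 4871 CPM with shOSGEP#1 and 4665 and 3225 CPM with shOSGEP#2. Over the deep libraries of each group, Eef2 was highest in replicate 1 and lowest in replicate 3. Its spread within groups was wide, shCtr and shOSGEP#2 overlapped, and the log2 fold change with shOSGEP#2 was −0.53 (standard error 0.21). Without each library in turn, this log2 fold change ran from −0.86 to −0.26. Eif5a, which encodes the hypusine-containing factor that helps ribosomes through stalling sequences, was at 1028, 983 and 1176 CPM in shCtr, 1050, 1087 and 996 CPM with shOSGEP#1 and 883 and 790 CPM with shOSGEP#2. The shOSGEP#2 libraries of Eif5a lay below the other deep libraries, at a log2 fold change of −0.44 (standard error 0.16).

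Of the initiation factors among the 10 genes, Eif4a1 encodes the RNA helicase eIF4A1 and Eif4b its cofactor eIF4B. Eif4a1 was at 635, 681 and 651 CPM in shCtr, 797, 710 and 727 CPM with shOSGEP#1 and 529 and 591 CPM with shOSGEP#2. Its shOSGEP#1 libraries were all above shCtr and its shOSGEP#2 libraries all below, at log2 fold changes of 0.17 (standard error 0.13) and −0.32 (standard error 0.15). Eif4b was at 617, 575 and 656 CPM in shCtr, 703, 636 and 789 CPM with shOSGEP#1 and 656 and 639 CPM with shOSGEP#2. The groups of Eif4b overlapped, and with shOSGEP#2 its log2 fold change of −0.02 (standard error 0.16) was the one nearest 0 among the 10 genes, and its sign depended on the scaling, with 0.07 under library totals.

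Pabpc1 encodes the main cytoplasmic poly(A)-binding protein. It was at 1859, 1371 and 1357 CPM in shCtr, 2289, 2329 and 1790 CPM with shOSGEP#1 and 1635 and 1023 CPM with shOSGEP#2. Its shOSGEP#1 value was the highest log2 fold change of the 10 genes, 0.47 (standard error 0.21), with overlap between the lowest shOSGEP#1 and the highest shCtr library. With shOSGEP#2 it was −0.29 (standard error 0.24). The 2 deep shOSGEP#2 libraries disagreed most for this gene, and without replicate 3 its log2 fold change turned to 0.03.

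Tpt1 encodes the translationally controlled tumour protein TCTP. It was at 1666, 1455 and 1574 CPM in shCtr, 1735, 1580 and 1701 CPM with shOSGEP#1 and 849 and 898 CPM with shOSGEP#2. Its shOSGEP#2 libraries lay far below the other groups, at a log2 fold change of −0.94 (standard error 0.15, a fold of 0.523), while shOSGEP#1 overlapped with shCtr at 0.08 (standard error 0.13).

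**Figure D2:**
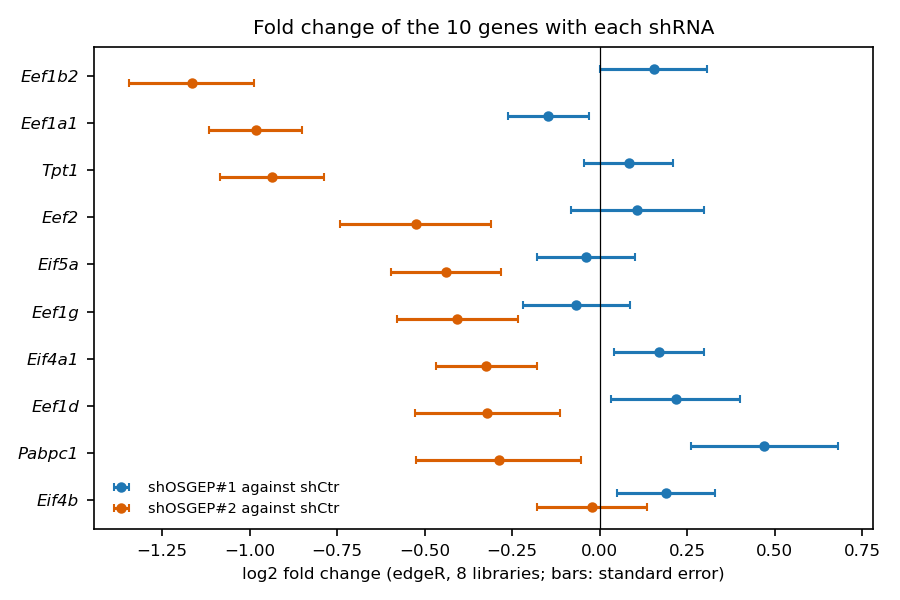
log2 fold changes (x axis; points with standard error bars) of the 10 genes (y axis) with shOSGEP#1 (blue) and shOSGEP#2 (orange) against shCtr, from edgeR on 8 libraries. The shOSGEP#1 values lie between −0.15 and 0.47, and all 10 shOSGEP#2 values lie below 0, from −1.17 to −0.02.

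Over the 10 genes the median log2 fold change against shCtr was 0.13 with shOSGEP#1, beside 0.00 for all 12744 genes tested, and −0.42 with shOSGEP#2, beside −0.06 for all genes. Both comparisons share the shCtr libraries. With shOSGEP#1, none of the 10 genes passed adjusted p under 0.01 in edgeR, against 9.67% of all genes tested (5.00% higher and 4.67% lower). In that comparison Eif4a1 was above shCtr in all libraries and Eef1a1 below in all, patterns that 23.1% and 22.2% of the genes showed. With shOSGEP#2, 3 of the 10 genes passed the threshold, all lower (Eef1a1, Eef1b2 and Tpt1), against 3.89% of all genes lower, 5.66% higher and 9.55% in either direction. The shOSGEP#2 libraries were below all shCtr libraries for 6 of the 10 (Eef1a1, Eef1b2, Eef1g, Eif4a1, Eif5a and Tpt1), as for 23.6% of all genes. Between the shRNAs, the same 3 genes were lower with shOSGEP#2 than with shOSGEP#1, against 4.56% of all genes lower, 6.23% higher and 10.8% in either direction, and the libraries of 7 genes (Eef1a1, Eef1b2, Eef2, Eif4a1, Eif5a, Pabpc1 and Tpt1) lay below without overlap, as for 22.5%. DESeq2 added Eif4a1 and Pabpc1 between the shRNAs, the fit with the replicate number added Eef2 and Pabpc1 there, and the fit without shOSGEP#2 replicate 1 added Pabpc1. With voom on all 9 libraries, Pabpc1 passed with shOSGEP#1. Since the 10 genes were selected on these values, nothing is read from these counts.

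In the shallow library all 10 genes had a lower CPM than in any of the other 8. Relative to the mean of the deep shOSGEP#2 libraries, its CPM was 0.130 for Eef1b2, 0.169 for Eif4a1, 0.197 for Eef1a1 and 0.264 for Tpt1, and between 0.332 (Eef1g) and 0.706 (Pabpc1) for the other 6. With this library in the edgeR fit, no gene of the table passed the threshold in any comparison (before adjustment, 620 genes for shOSGEP#1, 1240 for shOSGEP#2 and 1325 between the shRNAs had a p under 0.05). With the same 9 libraries, limma's voom with sample quality weights called 3317, 1012 and 933 genes. On the 8 deep libraries, edgeR called 1232, 1217 and 1375 genes and DESeq2 2420, 2395 and 2595. The median of the 10 genes with shOSGEP#2 was −0.82 with all 9 libraries, beside a median of −0.37 for all genes in that fit. Without shOSGEP#2 replicate 3, not every call of the 10 genes against shCtr held, and their median log2 fold change was −0.35. In that fit the remaining library is taken to vary as the other groups do. Since the 10 genes were chosen with these values in view, nothing is read from whether they pass.

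Together the 10 genes took 2.57%, 2.47% and 2.42% of the counts in the shCtr libraries, 2.67%, 2.45% and 2.42% with shOSGEP#1. With shOSGEP#2 the share was 1.60% ± 0.141 (SD, n = 2). The shallow library held 0.499% (95% Wilson interval 0.481% to 0.518%). Eef1a1 made up 51.6% ± 3.22 (SD, n = 3) of this sum in shCtr, 46.6% ± 2.47 (SD, n = 3) with shOSGEP#1 and 43.5% ± 4.57 (SD, n = 2) with shOSGEP#2. The cytoplasmic ribosomal protein genes together took 5.26% ± 0.387 (SD, n = 3) in shCtr, 4.04% ± 0.295 (SD, n = 3) with shOSGEP#1 and 3.80% ± 0.0677 (SD, n = 2) with shOSGEP#2. The sum of the 10 genes with shOSGEP#1 thus overlapped with that of shCtr, while the ribosomal protein share was lower in all 3 shOSGEP#1 libraries (4.33%, 4.03% and 3.74%) than in the shCtr libraries (5.32%, 4.84% and 5.61%). Per kilobase of transcript, Eef1a1 exceeded Eef1b2 35.3 ± 5.18 times in shCtr, 28.5 ± 1.94 times with shOSGEP#1 (SD, n = 3 each) and 39.8 ± 3.64 times with shOSGEP#2 (SD, n = 2). Its ratio to Eef2 was 4.22 ± 0.828, 3.52 ± 0.603 and 3.14 ± 0.862 in the same groups, whose libraries overlapped. The ratio to Eef1b2 depends on the length used, as the Eef1b2 transcript taken here has 1939 bases and its coding sequence 675. Per kilobase of coding sequence, Eef1a1 was at 9254 ± 307 CPM and Eef1b2 at 588 ± 70.4 CPM in shCtr (SD, n = 3 each).

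Codon content and length were taken from coding sequences of the GENCODE annotation of GRCm38, available for 21234 genes including all 10. ANN codons, the codons read by t6A-modified tRNAs, made up 33.7% of the codons of Tpt1, 31.8% of those of Eef1a1 and Eif4a1, and 23.6% of those of Eef1b2. The median over all genes was 27.7%, with quartiles of 24.1% and 30.8%. The other 6 genes lay between 25.6% (Eef1g) and 27.9% (Eif5a). The 3 genes that were lowest with shOSGEP#2 therefore included Tpt1 and Eef1a1, above the upper quartile, and Eef1b2, below the lower quartile. Lysine codons were above the upper quartile of 7.14% in 7 of the 10 genes, from 7.46% in Eef2 to 10.2% in Eef1b2 and Eef1a1, the others being Eef1d, Eef1g, Eif5a and Tpt1. All 10 coding sequences were between 462 bases (Eif5a) and 2574 bases (Eef2) long.

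Annotated transcription starts were compared for a TOP start, since the 10 mRNAs were grouped as known or presumed to have one. RefSeq promoter entries (GRCm38.p6) matched 7 of the 10 genes, with 12 annotated starts, 6 of them of Eif5a and 1 of each other gene, while Eef1d, Eef1g and Pabpc1 had none. A C at base 1 of the annotated start followed by at least 4 C or T was found at 0 of these 12 starts, at 2.51% of the 32851 starts in the RefSeq table (27025 genes, more than were counted here) and at 20.6% of 68 starts of ribosomal protein genes. Of 5 starts of the other mRNAs known to have a TOP start, 60.0% had it. With the C allowed within 5 bases on either side of the start, the shares were 8.33% of the 12 starts, 18.3% of all starts, 44.1% of the ribosomal protein starts and 80.0% of the 5 other TOP starts. The following windows run from 5 bases before the annotated start to base 25 of the transcript, on the sense strand, with the first run of a C and at least 4 C or T in capitals, and Rps6, which encodes a ribosomal protein, is shown for comparison.
Eef1a1, chr9:78481700-78481729, minus strand: CCCTCTTCCCgagggtgggggagaacggta
Eef2, chr10:81176626-81176655, plus strand: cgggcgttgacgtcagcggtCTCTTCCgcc
Eif4b, chr15:102073768-102073797, plus strand: tcggacgccgcgccaCCCCCTCgcgctgct
Tpt1, chr14:75845251-75845280, plus strand: acgacagttccgggggagccgcggacggtg
Eef1b2, chr1:63176826-63176855, plus strand: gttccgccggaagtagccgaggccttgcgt
Rps6, chr4:86857343-86857372, minus strand: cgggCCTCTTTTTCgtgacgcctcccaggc
In Eef1a1 the tract of 10 pyrimidines spans the annotated start, and in Eef2 and Eif4b a tract of 7 begins at bases 16 and 11 of the transcript. The windows of Tpt1 and Eef1b2 hold no such tract, nor do those of Eif4a1 and of the 6 starts of Eif5a, so that 3 of the 12 windows hold one. This says only which letters are in these windows. A match is a description of the annotation, and the starts used in these cells were not measured.

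Outside the 10 genes, the lists held 187 distinct genes tested, of which edgeR called 11 (5.88%) in each of the 3 comparisons, beside 9.67% of all genes with shOSGEP#1, 9.55% with shOSGEP#2 and 10.8% between the shRNAs. Over all genes with an adjusted p, DESeq2 called 20.1% with shOSGEP#1 and 18.9% with shOSGEP#2 and voom on all 9 libraries 26.9% and 8.20%, while 34.9% and 35.6% had an unadjusted p under 0.05 in edgeR. Of 17 factors tested, Gspt2, a form of the release factor eRF3, rose (log2 fold change 1.18, standard error 0.23, adjusted p = 0.00526) and Gtpbp1, a GTPase related to elongation factors, fell (−1.29, standard error 0.19, adjusted p = 0.00145) with shOSGEP#1 in edgeR's quasi-likelihood test, while DESeq2 called 3 and voom 5 of the 17. Gtpbp1 was at 113, 102 and 92.6 CPM in shCtr, 51.5, 42.8 and 33.1 CPM with shOSGEP#1 and 107 and 78.8 CPM with shOSGEP#2. With shOSGEP#2 none of the 17 passed in edgeR (6 had an unadjusted p under 0.05, beside 35.6% of all genes), while DESeq2 called 2 (beside 18.9%) and voom 0. Their median log2 fold changes were −0.09 with shOSGEP#1, turning to 0.00 without shCtr replicate 2 and to 0.01 without shOSGEP#1 replicate 3, and −0.22 with shOSGEP#2, or −0.66 with all 9 libraries. Of 15 tested enzymes acting on elongation factors, Eef2kmt, which methylates a lysine of eEF2, rose with both shRNAs: it was at 8.68, 9.24 and 5.76 CPM in shCtr, 21.9, 22.1 and 17.7 CPM with shOSGEP#1 and 21.6 and 23.9 CPM with shOSGEP#2 (log2 fold changes 1.37 and 1.43, edgeR adjusted p = 0.00207 and 0.00227). Dph2, of the diphthamide pathway that modifies eEF2, fell with shOSGEP#2 (a fold of 0.499, edgeR adjusted p = 0.00528). The list medians were −0.19 and −0.32, and DESeq2 called 2 and 3 of these enzymes and voom 4 and 1. The shallow library had no count of Eef2kmt, where 13.0 would be reached at its mean CPM in the other shOSGEP#2 libraries. Gtpbp1 kept its call with shOSGEP#1 when any of the 8 libraries was left out. Eef2kmt lost its call without shOSGEP#1 replicate 2 (with shOSGEP#1, edgeR adjusted p = 0.0121) and without shOSGEP#2 replicate 3 (with shOSGEP#2, 0.0111). Gspt2 lost it without any of the 6 shCtr and shOSGEP#1 libraries (adjusted p up to 0.0295), and Dph2 without any shCtr library, shOSGEP#1 replicate 2 or either shOSGEP#2 library (up to 0.0262), and also with only the groups compared in the fit.

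Of 42 initiation factors tested, 3 rose and none fell with shOSGEP#1, and 2 rose and 1 fell with shOSGEP#2, at list medians of 0.01 and −0.20. This was 7.14% of the list in each comparison, beside 9.67% and 9.55% of all genes. DESeq2 called 4 and 11 of the list, beside its 20.1% and 18.9% of all genes, and voom 5 and 2, beside 26.9% and 8.20%. The list median with shOSGEP#2 was −0.35 without shOSGEP#2 replicate 1, −0.11 with library totals and −0.56 with all 9 libraries. Eif4g3, which encodes a scaffold of the cap-binding complex, rose with both shRNAs. It was at 101, 80.0 and 77.5 CPM in shCtr, 171, 139 and 183 CPM with shOSGEP#1 and 171 and 186 CPM with shOSGEP#2 (log2 fold changes 0.92 and 0.96, edgeR adjusted p = 0.00261 and 0.00319). Its paralog Eif4g1 (0.63, standard error 0.14, edgeR adjusted p = 0.00935) and Eif3a (0.67, standard error 0.14, edgeR adjusted p = 0.00725), a core subunit of eIF3, rose with shOSGEP#1. With shOSGEP#2, Eif4a2, which encodes a helicase closely related to eIF4A1, rose from 85.7, 105 and 104 CPM in shCtr to 212 and 269 CPM (1.19, standard error 0.20, edgeR adjusted p = 0.00239). The shallow library had no count of Eif4a2 or Eif2s3x, where 137 and 131 would be reached at their mean CPM in the other shOSGEP#2 libraries. Eif2s3x, a subunit of eIF2, fell with shOSGEP#2 (−0.90, standard error 0.17, edgeR adjusted p = 0.00420). Each of these calls was lost without at least 1 library. Those with shOSGEP#1 were lost without shCtr replicate 2 or 3 (Eif4g3, edgeR adjusted p up to 0.0212) or without any of the 6 shCtr and shOSGEP#1 libraries (Eif3a, up to 0.0439, and Eif4g1, up to 0.0557, which also lost it with only the groups compared). Those with shOSGEP#2 were lost without shCtr replicate 1 or 2 or shOSGEP#2 replicate 3 (Eif4a2, up to 0.0212), without shCtr replicate 2 or 3 or either shOSGEP#2 library (Eif4g3, up to 0.0202), and without any shCtr library or shOSGEP#2 replicate 3 (Eif2s3x, up to 0.0403).

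Among the other mRNAs known to have a TOP start, 8 genes without ribosomal proteins were tested, 3 of which (Eif3e, Eif3f and Eif3h) are also on the initiation factor list. None passed the threshold against shCtr with either shRNA in edgeR, where 4 with shOSGEP#1 and 7 with shOSGEP#2 had an unadjusted p under 0.05, beside 34.9% and 35.6% of all genes. DESeq2 called 1 and 5 of them, beside 20.1% and 18.9%, and voom 2 and 1, beside 26.9% and 8.20%. The 8 genes were at medians of 0.01 with shOSGEP#1 and −0.66 with shOSGEP#2. Nap1l1, a histone chaperone, was lower with shOSGEP#2 than with shOSGEP#1 (−0.84, standard error 0.16, edgeR adjusted p = 0.00361), a call lost without shOSGEP#1 replicate 1 or 2 or shOSGEP#2 replicate 3 (up to 0.0360) and with only the groups compared. All 79 cytoplasmic ribosomal protein genes were tested. With shOSGEP#1 their median was −0.37 and 1 fell (Rpl18, −0.80, standard error 0.18, edgeR adjusted p = 0.00961), and with shOSGEP#2 their median was −0.58 and 4 fell (Rps24, Rpl5, Rps25 and Rpl7). These calls were 1.27% and 5.06% of the list, beside 9.67% and 9.55% of all genes. DESeq2 called 11 and 30 of the 79 (beside 20.1% and 18.9% of all genes) and voom 18 and 5 (beside 26.9% and 8.20%), and 32 and 54 had an unadjusted p under 0.05 in edgeR (beside 34.9% and 35.6%). Fitted values were below 0 for 73 and 77 of the 79, beside 49.9% and 53.4% of all genes. Rpl5 was at 739, 809 and 824 CPM in shCtr, 568, 561 and 602 CPM with shOSGEP#1 and 364 and 467 CPM with shOSGEP#2 (log2 fold change with shOSGEP#2 −1.03, standard error 0.16, edgeR adjusted p = 0.00149). Its call with shOSGEP#2 held without each of the 8 libraries in turn. In the shallow library Rpl5 was at 170 CPM, below all other libraries, while Rpl7 was at 1561 CPM against a mean of 473 in the other shOSGEP#2 libraries. Rps24 (−1.04, edgeR adjusted p = 0.00309) lost it without shCtr replicate 1 or shOSGEP#2 replicate 3 (up to 0.0310), Rps25 (−0.98, edgeR adjusted p = 0.00462) without shCtr replicate 1 or 3 or either shOSGEP#2 library (up to 0.0259) and with only the groups compared, and Rpl7 (−0.88, edgeR adjusted p = 0.00230) without shCtr replicate 2 or either shOSGEP#2 library (up to 0.0139). Rpl18 lost it without any shCtr library or shOSGEP#1 replicate 2 or 3 (up to 0.0437), and also with RLE normalization, with library totals and with the replicate number in the fit. The table matched 10 genes of the poly(A)-binding protein family and partners, of which 6 were tested. None of the 6 passed with either shRNA in edgeR (1 and 2 had an unadjusted p under 0.05), while DESeq2 called 1 and 1 and voom 1 and 0, at edgeR medians of 0.19 and −0.30. The former was 0.12 without shOSGEP#1 replicate 2, 0.13 without shCtr replicate 2 and 0.32 in voom. The latter was −0.14 without shCtr replicate 3 and −0.10 in both DESeq2 and voom. The DESeq2 fit did not use the filter on low counts, so its median can cover more genes of the list. In edgeR the median was −0.12 without that filter and −0.28 with RLE normalization.

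**Figure D3:**
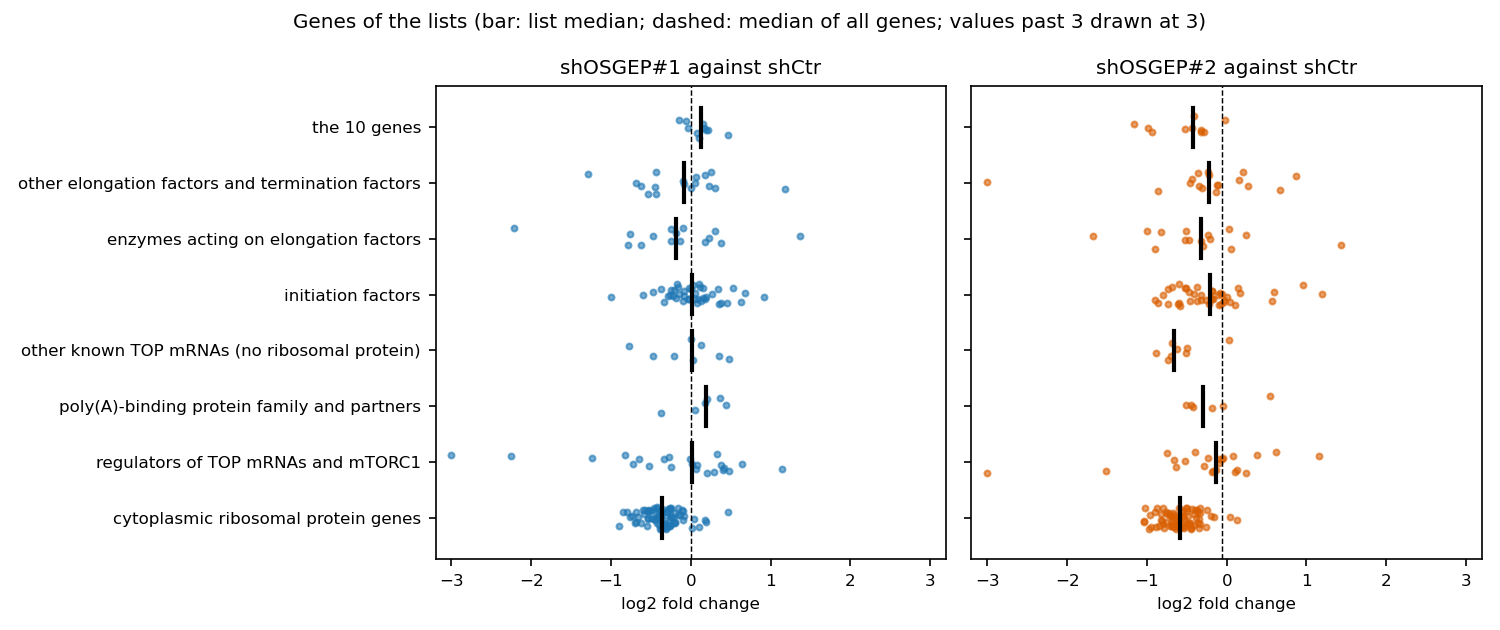
log2 fold changes (x axis) of the tested genes of each list (y axis) with shOSGEP#1 (left) and shOSGEP#2 (right) against shCtr; black bars are list medians, the dashed line is the median of all genes, and values beyond 3 are drawn at 3. The ribosomal protein bar lies at −0.37 and −0.58 and that of the 10 genes at 0.13 and −0.42.

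Of 23 regulators of TOP mRNAs and of mTORC1 tested, 1 rose and 3 fell with shOSGEP#1 (17.4% called, beside 9.67% of all genes) and 1 rose and 1 fell with shOSGEP#2 (8.70%, beside 9.55%), at medians of 0.01 and −0.14. DESeq2 called 6 and 5 of them, beside 20.1% and 18.9% of all genes, and voom 8 and 2, beside 26.9% and 8.20%. Their median with shOSGEP#2 was −0.26 without shOSGEP#2 replicate 3, −0.04 with library totals and −0.55 with all 9 libraries. Eif4ebp1, which encodes the translation repressor 4E-BP1, a target of mTORC1, was at 360, 307 and 224 CPM in shCtr, 77.3, 63.1 and 48.0 CPM with shOSGEP#1 and 320 and 289 CPM with shOSGEP#2. It fell with shOSGEP#1 (−2.25, standard error 0.22, edgeR adjusted p = 0.000182). Mtor, the kinase itself, was at 125, 120 and 98.6 CPM in shCtr, 60.3, 48.7 and 38.5 CPM with shOSGEP#1 and 146 and 120 CPM with shOSGEP#2. It fell with shOSGEP#1 too (−1.23, standard error 0.19, edgeR adjusted p = 0.00143). Both kept these calls without each of the 8 libraries in turn. Tsc2, an inhibitor of mTORC1 signalling, fell (−0.72, edgeR adjusted p = 0.00582) and Rptor, which encodes the mTORC1 subunit Raptor, rose (0.65, edgeR adjusted p = 0.00803) with shOSGEP#1. Deptor, an inhibitor of mTOR, was at 155, 176 and 256 CPM in shCtr, 260, 285 and 246 CPM with shOSGEP#1 and 58.1 and 89.7 CPM with shOSGEP#2. Deptor fell with shOSGEP#2 (−1.51, standard error 0.25, edgeR adjusted p = 0.00186). Larp1b, a paralog of Larp1, rose with shOSGEP#2 (1.15, standard error 0.21, edgeR adjusted p = 0.00364), from 18.2, 20.5 and 17.9 CPM in shCtr to 50.7 and 38.4 CPM, and the shallow library held 506 CPM of it. The same library had no count of Eif4ebp1, Mtor or Deptor, where 173, 75.7 and 42.0 would be reached at their mean CPM in the other shOSGEP#2 libraries. Tsc2 lost its call without any shCtr library or shOSGEP#1 replicate 2 or 3 (up to 0.0321), Rptor without any of the 6 shCtr and shOSGEP#1 libraries (up to 0.0466), Deptor without shOSGEP#2 replicate 1 (0.0142) and Larp1b without any shCtr library or shOSGEP#2 replicate 1 (up to 0.0211) and with the replicate number in the fit.

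Between the shRNAs (shOSGEP#2 against shOSGEP#1), 11 list genes outside the 10 passed the threshold in edgeR, among them Eif4ebp1 and Mtor, higher with shOSGEP#2, and Deptor, lower. The medians were −0.59 for the 10 genes, −0.18 for the other elongation and termination factors, −0.13 for the enzymes acting on elongation factors, −0.30 for the initiation factors, −0.55 for the other known TOP mRNAs, −0.31 for the poly(A)-binding protein family and −0.27 for the ribosomal proteins. Without shOSGEP#2 replicate 3, those of the initiation factors, the other known TOP mRNAs and the ribosomal proteins were −0.18, −0.33 and −0.15. With all 9 libraries they were −0.49, −0.85 and −0.65. The median of the regulators was −0.08, or −0.02 with Eif4ebp3, which had no count in the deep shOSGEP#2 libraries, set at the bound of 3 counts per library, and it turned to 0.01 with library totals as the only scaling. The median over all genes was −0.04.

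The genes whose pattern over the 8 deep libraries was most like that of Eef1a1 were Tceal8, Mospd3, Lsm5, Cyld and Cox7a2l, by the root mean square difference of centred log2(CPM + 1) values among 9320 genes with a mean of at least 10 CPM. The difference was 0.0522 for Tceal8 and 0.0867 for Cox7a2l. Tceal8 was at 31.2, 27.6 and 17.4 CPM on average in shCtr, shOSGEP#1 and shOSGEP#2, and Cyld at 57.4, 56.5 and 32.6 CPM. Of the other 9 genes, Tpt1 came nearest to Eef1a1 (0.125, with 23 genes outside the 10 nearer) and Pabpc1 was farthest (0.408, with 3152 nearer). The genes most like the mean pattern of the 10 were Ss18, Eif3b, Mrpl12, Rab11a and Ctc1, at differences of 0.0649 to 0.0725. Eif3b, a core subunit of eIF3 from the initiation factor list, was at 492, 531 and 366 CPM on average in the 3 groups. In the shallow library, which this likeness does not cover, Eif3b stood at 4413 CPM, while all 10 genes were at their lowest there.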

How the data were processed

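RIP-seq libraries of RNA recovered with FLAG-tagged RIG-I from B16F10 cells were compared, 3 each with shCtr, shOSGEP#1 and shOSGEP#2, grouped by the sample labels. Per the study's methods and the submitters' processing notes, the authors demultiplexed reads with bcl2fastq, trimmed them with Trim Galore, aligned them with STAR and quantified genes with Salmon on GRCm39. The deposited values are whole-number counts per gene, not normalized and not pooled. Genes with processed pseudogenes, as Eef1a1, Tpt1 and many ribosomal protein genes have, may share reads with these copies, so their counts are uncertain to that extent.

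Symbols matched 22237 of 22396 identifiers. The 10 genes and all gene lists were chosen with earlier results of these data known. The quasi-likelihood test of edgeR 4.0.16 (R 4.3.3) was used, after TMM normalization and filterByExpr, with a coefficient per group over 8 libraries, at a Benjamini-Hochberg adjusted p under 0.01. shOSGEP#2 replicate 2 was left out of this fit for its depth and for its effect on the fit. Earlier results of these data, known when this was chosen, had shown that it sets the spread of the whole fit. Each standard error was obtained from the log2 fold change and the F statistic of its test. Alternatives were all 9 libraries, DESeq2 1.42.0, voom of limma 3.58.1 with quality weights, RLE, library totals, other filters, an adjusted p under 0.05, only the groups compared, the replicate block and leaving out each library. edgeR and DESeq2 were also tested on simulated data, in which every gene was given the same dispersion. Of 2-fold changes edgeR missed almost all and DESeq2 most, so 4-fold changes were tried after that, and most of those were found. A gene that did not pass may therefore still differ by a fold of 2, about the size reported for Eef1a1, Eef1b2 and Tpt1. In the data themselves edgeR did call some smaller changes, such as Eif4g1 at a fold of 1.54 with shOSGEP#1, so the simulated shares do not carry over directly. Total counts ran from 568995 to 50224299, and the precision rests on the spread between replicates. Intervals are 95% Wilson intervals (scipy 1.17.1).

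Named outside the 10 genes were Osgep, in each list and comparison up to 6 genes past the threshold with the largest absolute log2 fold change, and the 5 genes most like Eef1a1 and the 5 most like the mean of the 10 genes. Outside this rule, the marker genes are named as a check of the cells, and Rps6, Eif4ebp3 and the genes on more than 1 list (Eif3e, Eif3f and Eif3h) were added with their values already known. The listed genes Eef1aknmt, Gas5 and Snhg1 were not matched by symbol. Plots were made with matplotlib 3.10.9, and tables with numpy 2.4.6 and pandas 2.3.3 (Python 3.11.15).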

Additional observations from a re-analysis of the deposited data

Results flagged for a closer look

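The shRNAs differed for 1 of the 10 genes in opposite directions: all shOSGEP#1 libraries of Eif4a1 lay above all shCtr libraries and both deep shOSGEP#2 libraries below them. Of all genes tested, 2.74% showed this pattern, and 6.36% had the shRNAs on opposite sides of shCtr in either direction. Its log2 fold change between the shRNAs was −0.493, which passed in DESeq2 and not in edgeR. Nothing is read from these calls, since the gene was chosen with these values in view, and the opposite directions were not tested.

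For 11 of the 187 distinct list genes tested (5.88%, beside 10.8% of all genes) the direct comparison of shOSGEP#2 with shOSGEP#1 passed adjusted p under 0.01 in edgeR's quasi-likelihood test. Higher with shOSGEP#2 than with shOSGEP#1 were Eif4ebp1 (log2 fold change 2.2, adjusted p = 0.000188), Larp1b (1.97, adjusted p = 0.000215), Mtor (1.36, adjusted p = 0.000926) and Gtpbp1 (1.06, adjusted p = 0.00506). Lower with shOSGEP#2 were Deptor (−1.93, adjusted p = 0.000496), Larp4 (−1.15, adjusted p = 0.00671), Eif2s3x (−0.958, adjusted p = 0.00270), Eif2s1 (−0.904, adjusted p = 0.00307), Rps24 (−0.882, adjusted p = 0.00654), Nap1l1 (−0.841, adjusted p = 0.00361) and Eif3l (−0.769, adjusted p = 0.00815). The shallow library had no count of Gtpbp1, where 52.9 would be reached at its mean CPM in the other shOSGEP#2 libraries, and the log2 fold change of Gtpbp1 was as low as 0.13 over the alternatives. Those of Mtor and Eif4ebp1 were as low as 0.46 and 1.29, and that of Larp1b was as high as 3.615. For Deptor the range was −2.90 to −1.67. Eif4ebp1, Larp1b, Mtor and Deptor kept the call without each of the 8 libraries in turn. Eif2s3x and Eif2s1 lost it without shOSGEP#2 replicate 3 (adjusted p = 0.0292 and 0.0319). Nap1l1 lost it without shOSGEP#1 replicate 1 or 2 or shOSGEP#2 replicate 3 (up to 0.0360), and Gtpbp1 without shCtr replicate 2, shOSGEP#1 replicate 2 or 3 or shOSGEP#2 replicate 1 (up to 0.0369). Rps24 lost it without shCtr replicate 2, any shOSGEP#1 library or either shOSGEP#2 library (up to 0.0571), Larp4 without any library but shOSGEP#1 replicate 1 (up to 0.0437), and Eif3l without any but shOSGEP#2 replicate 1 (up to 0.0746). With only the groups compared in the fit, 4 of the 11 calls were kept, and with all 9 libraries none was in edgeR and 5 were in voom.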

How the results depend on the processing

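With all 9 libraries in edgeR, no gene passed in any of the 3 comparisons (0, 0 and 0 called), the one added library being the difference, and limma's voom with quality weights on the 9 libraries called 3317 genes for shOSGEP#1. DESeq2 called 2420, 2395 and 2595 genes, and an adjusted p under 0.05 gave 2797, 2674 and 2952. With only the groups compared, 737 genes were called between the shRNAs. All genes called by edgeR on 8 libraries (1232, 1217 and 1375) were among those of DESeq2. The filters gave 1748, 1603 and 1803 genes with none and 1360, 1337 and 1464 with at least 10 counts in every library. Leaving out each library in turn gave 318 to 1458 genes for shOSGEP#1, 518 to 1471 for shOSGEP#2 and 743 to 1504 between them. For shOSGEP#1 the count was 427, 318 and 763 without shCtr replicate 1, 2 and 3, and 429 and 724 without shOSGEP#1 replicate 2 and 3. For shOSGEP#2 it was 584, 518 and 766 without the shCtr libraries and 631 without shOSGEP#2 replicate 3. Between the shRNAs it was 821 without shOSGEP#1 replicate 2 and 743 without shOSGEP#2 replicate 3.

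The median log2 fold change of the 10 genes with shOSGEP#2 was −0.42, against −0.82 with all 9 libraries and −0.33 with library totals. Between the shRNAs it was −0.59, against −1.001 and −0.51. Without each library in turn the ranges were 0.0794 (without shOSGEP#1 replicate 3) to 0.16 with shOSGEP#1, −0.67 to −0.35 with shOSGEP#2 and −0.70 to −0.49 between the shRNAs, the lowest of both without shOSGEP#2 replicate 1 and the highest without replicate 3. The medians of the other elongation and termination factors, the initiation factors, the other known TOP mRNAs and the regulators with shOSGEP#1, all within 0.1 of 0, each changed sign without at least 1 library. The cause of these shifts was not tested. With shOSGEP#2, all 18 alternatives gave a log2 fold change below 0 for 8 of the 10 genes, Eif4b turned in 4 (voom, library totals, without shCtr replicate 3 and without shOSGEP#2 replicate 3) and Pabpc1 in 1 (without shOSGEP#2 replicate 3). With shOSGEP#1, Eef2 turned in 1 (without shCtr replicate 3) and Eif5a in 2 (also voom). The log2 fold change of Osgep, shOSGEP#2 against shOSGEP#1, turned from −0.74 to 0.32 without shOSGEP#2 replicate 1, and was −4.753 without shOSGEP#2 replicate 3.

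Same-numbered libraries correlated at −0.00337 to 0.180 (mean 0.081) in their deviations from the group means. The other pairs of libraries from different groups correlated at −0.180 to 0.144 (mean −0.040). Deviations from a group mean cancel out within the group, and those of the deep shOSGEP#2 libraries mirror each other. The means of the same-numbered and other pairs are therefore not independent of each other. What the replicate number stands for was not tested. With the replicate block, edgeR called 1380, 1238 and 1393 genes, and between the shRNAs Eef2 and Pabpc1 passed besides Eef1a1, Eef1b2 and Tpt1. Nothing is read from the calls of these selected genes. The replicate block on all 9 libraries, added after the data were seen, called 0, 0 and 0 genes (407, 787 and 842 at an unadjusted p under 0.05), with medians of the 10 genes of −1.04 and −1.16. In the shallow library levels under 5.27 CPM are below the floor, but its values also depart from the other shOSGEP#2 libraries beyond counting: Eif2s3x, Eif4a2 and Eif4ebp1 had no count where 131, 137 and 173 would be reached at their mean CPM, and Larp1b had 288 where 25.4 would be.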
